A study of Rattus norvegicus with 40 samples.

Results

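The metallothioneins Mt1, Mt2A and Mt3 were followed in the hippocampus of young rats after lead exposure during development. The probe sets were all those whose only gene symbol in the platform's annotation was Mt1, Mt2A or Mt3, which gave 3 of the 14506 genes with a probe set of their own and 5 of the 29214 probe sets on the array. Mt1 had 2 of them (10796411 and 10809392), Mt2A had 2 (10809399 and 10827989) and Mt3 had 1 (10809402). None of the 323 probe sets shared by several symbols carried a member's symbol. No filter on low signal was applied, so all 5 were tested in every comparison.

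Each of 40 arrays held hippocampal RNA of 1 rat sample, with 4 arrays in each of 10 groups, from animals killed at postnatal day 55. Females at 250 and 750 ppm perinatally, females at 250 and 750 ppm postnatally and control females were matched by the same 5 groups of males. Lead was given as lead acetate in the chow. In the perinatal groups the dams ate it from 10 days before breeding until the pups were weaned, and in the postnatal groups it lasted from birth to day 45. Controls ate the same chow without lead, and every exposed animal was back on that chow before it was killed, so the values describe a time after exposure. No strain is given in the labels. Litters are not given either. If littermates were used, the p-values cover only the differences among these particular samples.

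Metallothioneins are small, cysteine-rich proteins that bind zinc and copper and can also bind cadmium and other toxic metals. The transcription factor MTF-1 senses free zinc and switches on Mt1 and Mt2A through short metal response elements in their promoters, and glucocorticoids and inflammatory cytokines raise both genes as well. In the brain Mt1 and Mt2A are made mainly by astrocytes. Mt3, first known as growth inhibitory factor, is the brain's own member, found in neurons and astrocytes, and responds little to metals.

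The 3 genes lie beside each other on rat chromosome 19 with no other annotated gene between them, followed by Mt4, the metallothionein of stratified epithelia, in the GRCr8 assembly. Their promoters are shown because Mt1 and Mt2A moved together on the arrays below and Mt3 did not. Whether the promoters bear on that pattern was not tested. The sequences are from RefSeq (GRCr8, minus strand, the 250 bases before the transcription start, written 5′ to 3′), and capitals mark matches on either strand to the metal response element core, searched as TGCACNC or TGCGCNC. They cover chr19:10832976-10833225 for Mt1, chr19:10838709-10838958 for Mt2A and chr19:10856081-10856330 for Mt3.
Mt1: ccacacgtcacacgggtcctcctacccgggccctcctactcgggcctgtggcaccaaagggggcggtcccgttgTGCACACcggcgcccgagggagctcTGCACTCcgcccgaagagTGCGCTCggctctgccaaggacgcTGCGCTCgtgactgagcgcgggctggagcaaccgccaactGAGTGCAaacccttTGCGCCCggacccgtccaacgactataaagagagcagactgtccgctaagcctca
Mt2A: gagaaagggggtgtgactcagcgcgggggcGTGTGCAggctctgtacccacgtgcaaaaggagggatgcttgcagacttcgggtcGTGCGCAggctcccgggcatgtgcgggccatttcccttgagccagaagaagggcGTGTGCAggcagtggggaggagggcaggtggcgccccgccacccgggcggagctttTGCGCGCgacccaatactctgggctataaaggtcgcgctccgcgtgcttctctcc
Mt3: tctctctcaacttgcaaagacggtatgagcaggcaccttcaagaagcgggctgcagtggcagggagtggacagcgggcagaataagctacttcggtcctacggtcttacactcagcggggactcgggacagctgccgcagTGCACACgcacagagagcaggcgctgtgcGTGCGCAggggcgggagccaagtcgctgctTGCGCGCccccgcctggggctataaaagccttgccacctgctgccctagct

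The Mt1 window held 6 matches to the metal response element core, that of Mt2A 4 and that of Mt3 3. At least 1 match was present in 20.6% of 33469 rat promoter windows of the same length, at least 3 in 1.17%, at least 4 in 0.266% and at least 6 in 0.0269%. All 3 windows also held a TATA box (TATAAA on the gene strand), found in 8.06% of windows. An antioxidant response element core (TGACNNNGC, either strand) was present once in Mt1 and once in Mt2A and in 10.1% of all windows, and no match stood in the Mt3 window. No match of one motif overlapped another within these promoters. A match is a run of letters, not a measured binding site.

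Some arrays bear on the results. Array medians lay between 6.96 and 7.06 on the log2 scale. Eif2s3, an X-linked translation factor gene, read 11.62 to 11.77 in 16 exposed females and 11.15 to 11.42 in 16 exposed males, and 3 of 8 control arrays (male control replicate 4, female control replicates 1 and 3) read in the range of the other sex. Control groups are therefore named by their labels. Signal was compressed on 3 arrays of perinatally exposed males (replicates 1 and 3 at 250 ppm and replicate 1 at 750 ppm), whose slope against the mean array, minus 1, was -0.0325 to -0.0191, against -0.0132 or more elsewhere. The sample numbers in the titles form 3 ranges, and the lowest holds both control groups and the females at 750 ppm perinatally, so that for the other 7 exposed groups the number range and lead exposure cannot be told apart. The mean of 12 neuron markers was 11.87 to 11.98 log2 on every array and that of 10 astrocyte markers 10.78 to 10.97, both above the array medians. The mean of 11 choroid plexus markers ranged from 6.11 to 10.39.

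The metallothioneins gave strong signals. Averaged over all arrays, Mt2A stood at 12.72 (10809399) and 12.31 (10827989) log2, above more than 99.1% of probe sets, Mt1 at 10.46 (10796411) and 10.18 (10809392), and Mt3 at 10.42. These percentiles place each probe set within the array, while probe sets of different genes are not compared with each other because their probes differ. Mt4 averaged 5.89, below the median of the arrays. The paired probe sets of one gene carry the same gene identifier. They followed each other closely, with r = 0.988 for Mt1 and r = 0.976 for Mt2A over 40 arrays. They are therefore treated as repeat readings and not as independent evidence. Why these genes have more than 1 probe set cannot be told from the annotation. As the arrays measured whole tissue, fewer cells of a type and less RNA per cell cannot be told apart.

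**Figure D1:**
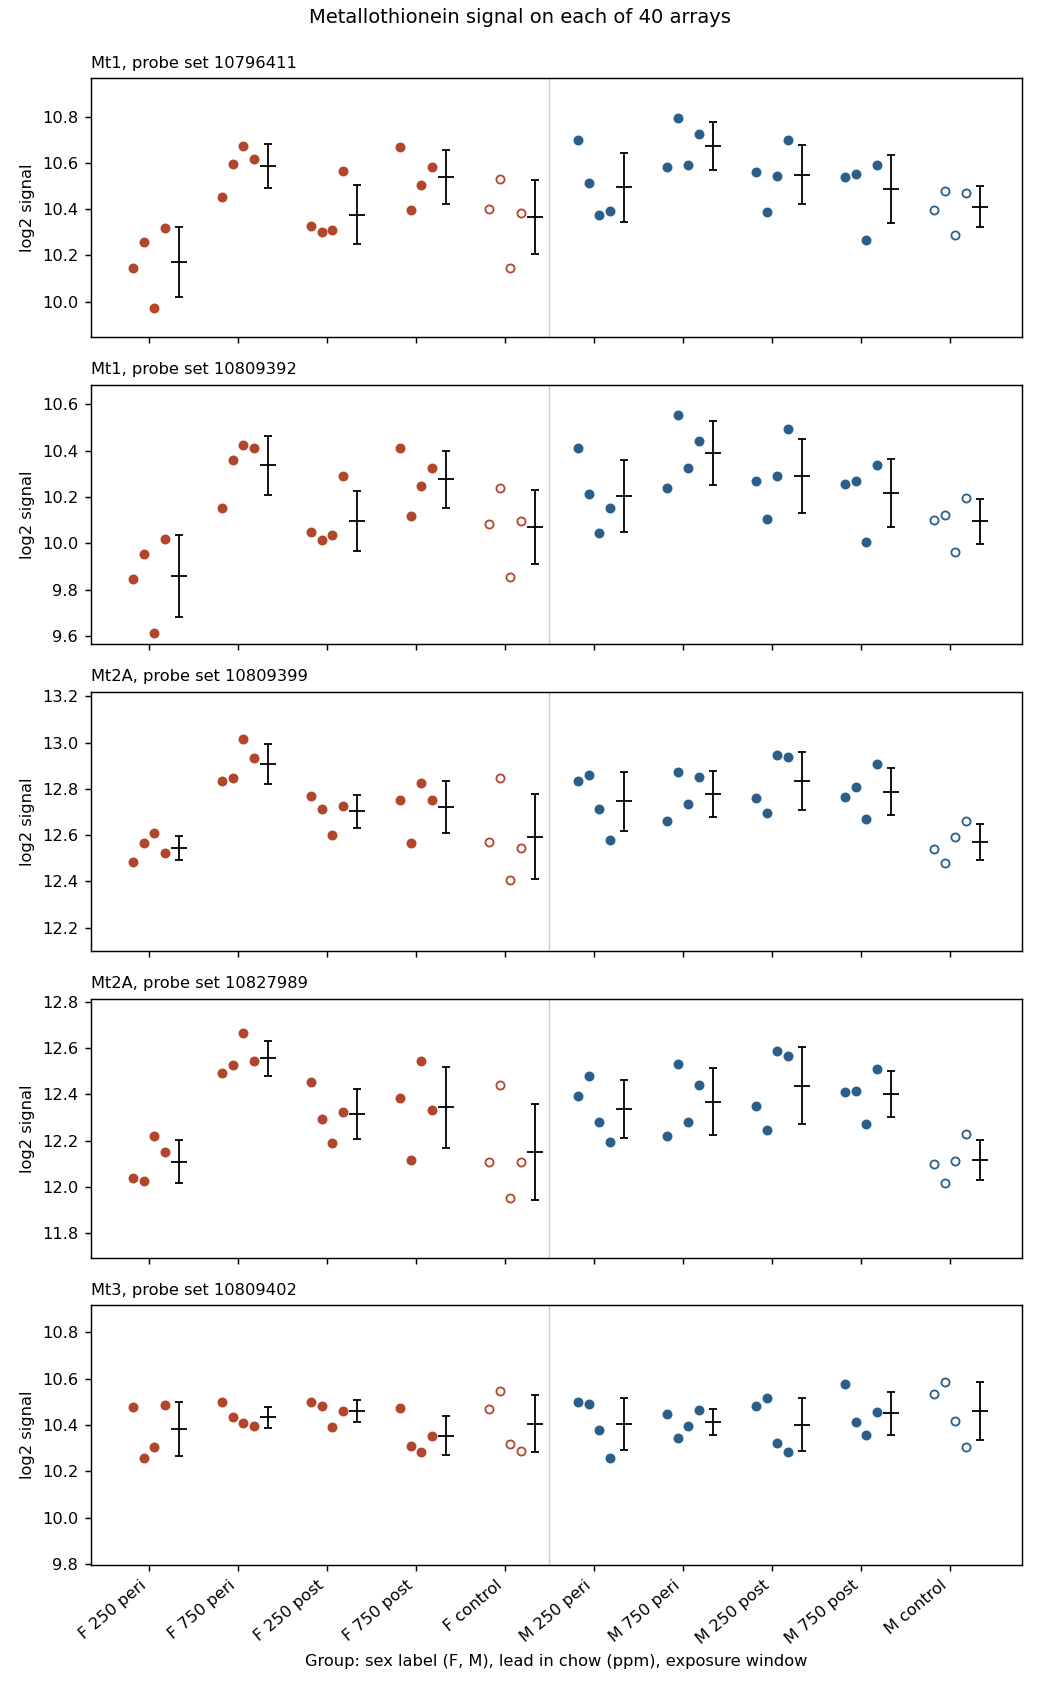
Log2 signal of the 5 metallothionein probe sets (panels) on each array (points, filled for exposed and open for control groups, red for females and blue for males), with the group mean and SD (black, n = 4) beside them. Females at 750 ppm perinatally have the highest Mt2A mean, 12.91 for probe set 10809399, and females at 250 ppm perinatally the lowest mean of Mt1 and Mt2A, while Mt3 lies between 10.26 and 10.59 on all arrays.

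Ordered by level, the groups spread over 0.50 log2 in Mt1 (10796411) and 0.36 log2 in Mt2A (10809399), against a pooled SD within groups of 0.13 and 0.11. Mt1 was highest in males at 750 ppm perinatally (10.67 ± 0.10, mean ± SD, n = 4) and next in females at 750 ppm perinatally (10.59 ± 0.09). It was lowest in females at 250 ppm perinatally (10.17 ± 0.15), below control females (10.37 ± 0.16). Mt2A was highest in females at 750 ppm perinatally (12.91 ± 0.09), and the 3 lowest means were those of females at 250 ppm perinatally (12.55 ± 0.05), control males (12.57 ± 0.08) and control females (12.59 ± 0.18). Between neighbours in the order of Mt1 means, only the step between females at 250 ppm perinatally and control females (0.19 log2) exceeded the pooled SD, and for Mt2A only that between females at 250 ppm postnatally and control females (0.11 log2). All other neighbours lay within the pooled SD of each other, and the second probe set of each gene placed its 1 larger step at the same point. Mt3 spanned 0.11 log2, with its lowest mean in females at 750 ppm postnatally (10.35 ± 0.09), its highest in control males (10.46 ± 0.12) and no step beyond its pooled SD of 0.10.

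The most member calls came from the 2 perinatal groups of females. Among females exposed perinatally, Mt1 and Mt2A were higher at 750 ppm than at 250 ppm, by 1.29-fold to 1.39-fold in signal, and Mt3 did not pass the test. Against control females Mt1 (10796411) averaged 0.22 log2 higher at 750 ppm and 0.19 lower at 250 ppm, and neither difference was called. Mt2A (10827989) read 12.49, 12.52, 12.66 and 12.54 log2 at 750 ppm, against 12.04, 12.03, 12.22 and 12.15 at 250 ppm. Its other probe set, 10809399, read 12.83, 12.85, 13.02 and 12.94 at 750 ppm, against 12.49, 12.57, 12.61 and 12.52 at 250 ppm. Every array at 750 ppm was above every array at 250 ppm for both, a separation upwards seen for 2.84% of all probe sets. Mt1 (10809392) read 10.15, 10.36, 10.42 and 10.41 at 750 ppm, against 9.85, 9.95, 9.61 and 10.02 at 250 ppm. For its probe set 10796411 the values were 10.45, 10.60, 10.68 and 10.62 at 750 ppm, against 10.14, 10.26, 9.97 and 10.32 at 250 ppm. The groups did not overlap for Mt1 either, and the lowest array of the 750 ppm group was replicate 1 throughout.

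In the limma test over all probe sets, the difference (750 minus 250 ppm) was 0.45 log2 (SE 0.09, 1.36-fold, adjusted p = 0.0275) for Mt2A 10827989 and 0.36 (SE 0.07, 1.29-fold, adjusted p = 0.0278) for 10809399. For Mt1 it was 0.48 (SE 0.10, 1.39-fold, adjusted p = 0.0275) with 10809392 and 0.41 (SE 0.09, 1.33-fold, adjusted p = 0.0428) with 10796411. Thus 4 of the 5 member probe sets were called, where the same contrast called 25 of 29214 probe sets (0.0856%, or 0.0753% counting those that were higher), and the 4 ranked 17th to 24th among all probe sets by p. The 4 are paired readings of Mt1 and of Mt2A and do not count as separate results. Mt3 read 10.50, 10.43, 10.41 and 10.40 at 750 ppm, against 10.48, 10.26, 10.31 and 10.49 at 250 ppm, and its difference was 0.05 log2 (95% interval -0.08 to 0.19, adjusted p = 0.874). These calls are close to the threshold: with single arrays of the 8 left out, 2 and 3 of 8 refits still called the Mt1 probe sets 10796411 and 10809392, 1 of 8 Mt2A 10809399 and 2 of 8 Mt2A 10827989. The differences then lay between 0.33 and 0.54 log2, and the highest adjusted p was 0.278, for Mt1 10796411 without replicate 3 of the 250 ppm group. The 2 groups also come from different sample-number ranges, so dose and range cannot be told apart.

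Against control females, the females at 750 ppm perinatally had higher Mt2A, a comparison that lies within 1 range of sample numbers. Mt2A (10827989) read 12.49, 12.52, 12.66 and 12.54 log2 at 750 ppm, against 12.11, 12.44, 11.95 and 12.11 in controls. The groups did not overlap, a separation upwards seen for 2.58% of all probe sets, and control replicate 2 was the closest to the exposed arrays. The difference was 0.40 log2 (SE 0.09, 1.32-fold, adjusted p = 0.0475), in a contrast that called 46 probe sets (0.157%, or 0.147% counting those that were higher). Mt2A 10809399 differed by 0.32 log2 (SE 0.07, adjusted p = 0.0682), with values that overlapped because control replicate 2, at 12.85, lay inside the exposed range. Both probe sets of Mt1 were higher on average and not called, at 0.22 log2 (10796411, adjusted p = 0.667) and 0.27 log2 (10809392, adjusted p = 0.583).

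The call of Mt2A 10827989 rested on most of the 8 arrays. The difference was 0.50 log2 (adjusted p = 0.00439) without control replicate 2. Leaving out any other single array lost the call, for 3 control and 4 exposed arrays, with the smallest difference of 0.34 log2 (adjusted p = 0.31) without control replicate 3. Without the 3 control arrays whose Eif2s3 went against their label, the difference was 0.28 log2 (adjusted p = 0.917), and only 2 female controls were then left. Set against all 8 controls of both labels, a comparison chosen after the data were seen, it was 0.42 log2 (adjusted p = 0.00356), and 10809399 passed as well, at 0.33 log2 (adjusted p = 0.0059).

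**Figure D2:**
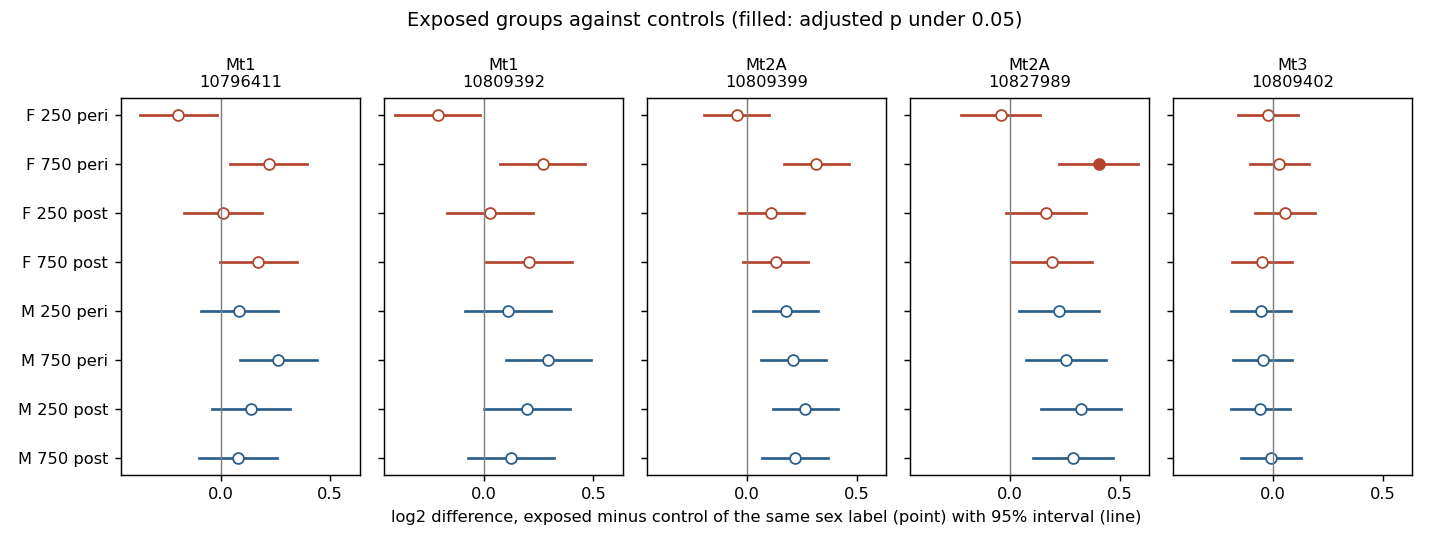
Difference of each exposed group from controls of its own sex label (log2, points) with its 95% interval (lines), for the 5 probe sets (panels), females in red and males in blue. The 1 filled point, Mt2A 10827989 in females at 750 ppm perinatally, has an adjusted p under 0.05, and the Mt3 points all lie within 0.06 log2 of 0.

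Across the 8 exposed groups, Mt2A lay above controls in 7 and below them in 1, the females at 250 ppm perinatally. The differences of 10827989 ran from -0.04 to 0.40 log2 and those of 10809399 from -0.05 to 0.32. Mt1 likewise was above controls in 7 of 8, with differences from -0.19 to 0.26 (10796411) and from -0.21 to 0.29 (10809392). The 4 groups of one sex share their controls, so these directions do not add up as independent results. Of the 40 member tests, 1 was called and 19 had an unadjusted p under 0.05 by limma, which 3.58% to 9.51% of all probe sets had in the single contrasts. The 40 count the repeat readings of Mt1 and of Mt2A separately. The 19 include both Mt1 probe sets in females at 250 ppm perinatally, where Mt1 was lower than in controls. Over all probe sets the 8 contrasts called 0.0171%, 0.157%, 0.0171% and 0.0137% in females (250 and 750 ppm perinatal, then 250 and 750 ppm postnatal) and 0.089%, 0.0582%, 0.0342% and 0.0445% in males in the same order.

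In males Mt2A averaged above controls in all 4 exposed groups, without a call. Mt2A (10827989) averaged 12.34 ± 0.13 log2 at 250 ppm perinatally, 12.37 ± 0.14 at 750 ppm perinatally, 12.44 ± 0.17 at 250 ppm postnatally and 12.40 ± 0.10 at 750 ppm postnatally, and 12.11 ± 0.09 in control males (SD, n = 4 each). Its 4 differences were 0.22, 0.25, 0.32 and 0.29 log2, with adjusted p = 0.556, 0.451, 0.373 and 0.315 in the limma fit. After postnatal exposure of males at 250 ppm, this probe set read 12.35, 12.25, 12.59 and 12.56, against 12.10, 12.02, 12.11 and 12.23 in control males. Neither postnatal group of males overlapped controls in either Mt2A probe set, a separation upwards seen for 1.49% of all probe sets at 250 ppm and 2.42% at 750 ppm. None of these differences passed the test over all probe sets.

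Among males Mt1 had its highest mean at 750 ppm perinatally. It read 10.58, 10.79, 10.59 and 10.73 log2 (10796411) there, against 10.40, 10.48, 10.29 and 10.47 in control males. The groups did not overlap in either Mt1 probe set (2.27% of all probe sets were separated upwards), and the difference was 0.26 log2 (SE 0.09, adjusted p = 0.416), which was not called. In the other 3 male groups the Mt1 difference from controls was between 0.08 and 0.20 log2 over both probe sets. In females at 250 ppm perinatally Mt1 averaged 0.19 log2 below control females with 10796411 (95% interval -0.37 to -0.02) and 0.21 below with 10809392, with all 4 exposed arrays under the control mean, and adjusted p = 0.842 and 0.851. That group was also lower than males of the same exposure, by 0.32 log2 with 10796411 (adjusted p = 0.164) and 0.35 log2 with 10809392 (adjusted p = 0.183), without overlap in Mt1 (1.87% of all probe sets were separated downwards) and with overlap in Mt2A.

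Taking all exposed groups at once, Mt2A was higher in the exposed groups than in controls. Both control groups lie in the lowest range of sample numbers, and most exposed groups lie outside it. For those exposed groups, lead and sample-number range cannot be told apart. The mean of the 8 exposed groups minus that of the 2 control groups was 0.23 log2 (SE 0.05, 1.17-fold, adjusted p = 0.032) for 10827989 and 0.17 log2 (SE 0.04, 1.13-fold, adjusted p = 0.0468) for 10809399. This contrast called 111 probe sets (0.38%, or 0.301% counting those that were higher). Mt1 differed by 0.10 log2 (10796411, adjusted p = 0.672) and 0.13 log2 (10809392, adjusted p = 0.531), and Mt3 by -0.02 log2 (95% interval -0.10 to 0.05, adjusted p = 0.976). Without the 3 mismatched control arrays the Mt2A differences were 0.18 and 0.14 log2 and were not called (adjusted p = 0.312 for 10827989 and 0.38 for 10809399). With single arrays left out, the call of 10809399 was lost for 28 of 40 arrays (6 control and 22 exposed), with differences down to 0.14 log2 and a highest adjusted p = 0.202. That of 10827989 was lost for 6 of 40, all of them controls (female replicates 1, 3 and 4, male replicates 1, 2 and 3), with differences between 0.19 and 0.23 log2 and a highest adjusted p = 0.136.

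No test of Mt3 was called in any comparison. Its differences from controls were between -0.06 and 0.05 log2 in the 8 exposed groups, with 95% intervals that reached no further than -0.19 and 0.19. None of the 8 had an unadjusted p under 0.05 in the limma fit, and none was called. The same held for its dose contrasts (-0.11 to 0.05 log2), those of window (-0.08 to 0.08), those of sex (-0.10 to 0.06) and the interactions (-0.04 to 0.11). These intervals bound a change of Mt3 rather than show that there was none.

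Doses other than perinatal in females, exposure windows and sexes gave no call for any member. At 750 ppm the perinatal and postnatal groups of either sex come from different sample-number ranges, so window and range cannot be told apart. The same holds for dose and range in perinatal males. Between 750 and 250 ppm, Mt1 (10796411) differed by 0.18 log2 in perinatal males (adjusted p = 0.962), 0.16 in postnatal females (adjusted p = 0.999) and -0.06 in postnatal males (adjusted p = 1). The other dose contrasts called 0.0411% of all probe sets in perinatal males, 0.0103% in postnatal males and 0 in postnatal females. Between windows (postnatal minus perinatal), Mt2A (10809399) differed by -0.19 log2 in females at 750 ppm (adjusted p = 0.817), without overlap (2.05% of all probe sets were separated downwards), and by 0.16 in females at 250 ppm (adjusted p = 0.795). The other Mt2A probe set, 10827989, differed by -0.21 log2 in females at 750 ppm (limma adjusted p = 0.858), and there the groups overlapped. Of 20 member tests of window 0 were called by limma and 7 had an unadjusted p under 0.05, as did 5.07% to 19.4% of all probe sets in the single contrasts. The 4 contrasts called 0.0103% (females, 250 ppm), 0.0548% (females, 750 ppm), 0.00342% (males, 250 ppm) and 0.175% (males, 750 ppm) of probe sets.

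Females and males were compared at equal exposure, and the effect of lead was compared between the sex labels through interactions. Only the interactions concern the effect of lead, and their controls include the 3 arrays whose Eif2s3 went against their label. At 750 ppm perinatally the females and males come from different sample-number ranges, so sex and range cannot be told apart. Female minus male differences at equal exposure gave 0 calls of 20 by limma and 5 unadjusted p under 0.05, a level that 1.78% to 21.7% of all probe sets reached in the single contrasts, with 0.103% and 0.705% of probe sets called at 250 and 750 ppm perinatally and 0 in both postnatal comparisons. The interaction of sex label with lead against controls gave 0 calls of 20 and 4 unadjusted p under 0.05, all at 250 ppm perinatally, where 3.35% of all probe sets had one. There the female effect minus the male effect was -0.32 log2 for Mt1 10809392 (95% interval -0.60 to -0.05) and -0.27 for Mt2A 10827989 (95% interval -0.52 to -0.01), each with adjusted p = 1. The interactions called 0.0205% of probe sets at 750 ppm perinatally and 0 elsewhere.

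From array to array Mt1 and Mt2A moved together. Over 40 arrays, Mt1 (10796411) and Mt2A (10809399) correlated at r = 0.727 and rho = 0.728 (permutation test, 100000 resamples, p = 1e-05 for both, the smallest they can give, and adjusted p = 3e-05 over 3 pairs). After group means were subtracted r was 0.62 and rho 0.603 (permutation p = 2e-05 and 7e-05, adjusted p = 6e-05 and 0.00021). Without the 2 arrays farthest in Mt1, r was 0.739 as measured and 0.549 after subtraction. Within the lowest range of sample numbers r was 0.845 (12 arrays) and within the middle range 0.738 (24 arrays), and the highest range holds only 4 arrays of 1 group. Mt1 and Mt2A are closely related small genes, and whether probes of one also read the other was not tested. Mt3 correlated with Mt1 at r = 0.164 and rho = 0.103 (permutation p = 0.309 and 0.527, adjusted p = 0.463 and 0.733), and with Mt2A at r = 0.0589 and rho = 0.0555 (permutation p = 0.716 and 0.733, adjusted p = 0.716 and 0.733). After group means were subtracted, Mt3 and Mt1 correlated at r = 0.267 and rho = 0.273 (permutation p = 0.0952 and 0.0889, adjusted p = 0.143 and 0.133). For Mt3 and Mt2A r was then 0.0597 and rho 0.0128 (permutation p = 0.715 and 0.938).

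**Figure D3:**
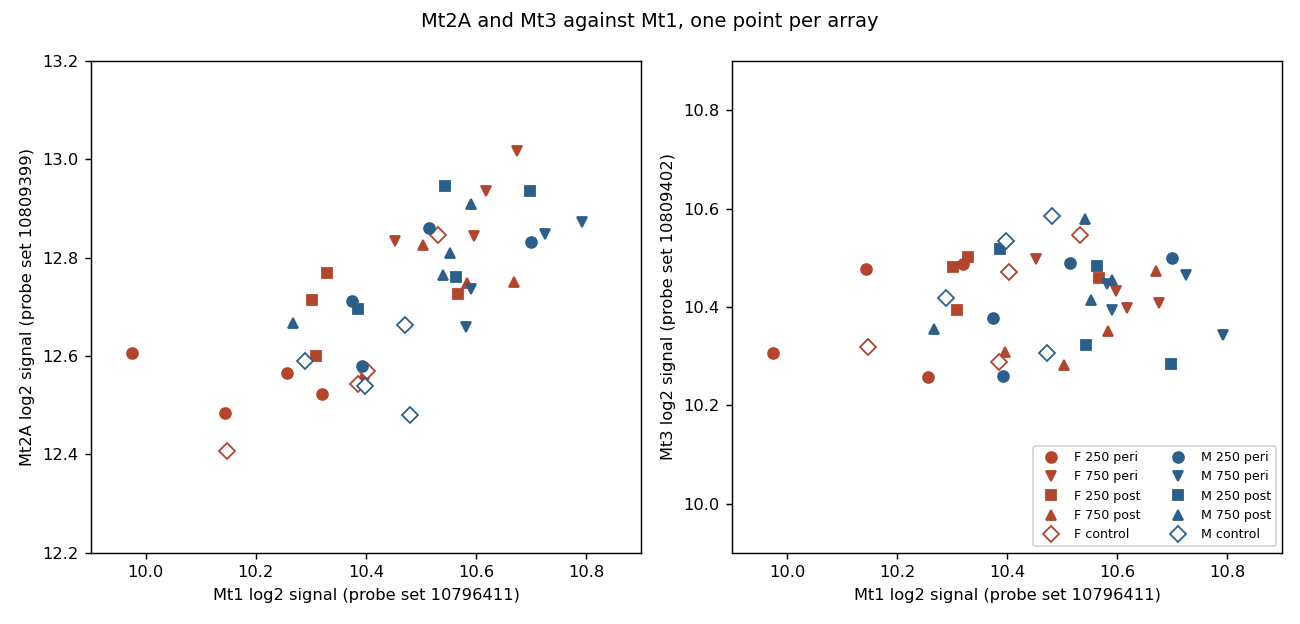
Mt2A (left) and Mt3 (right) against Mt1, log2 signal, 1 point per array, red for females and blue for males, with the symbol giving exposure and open diamonds for controls. Mt2A follows Mt1 (r = 0.727, 40 arrays), and the Mt3 points form a flat band (r = 0.164); the axes of each panel span the same number of log2 units.

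The genes most like each member were sought among 14505 others with group means subtracted, over 40 arrays, and are given as a description. For Mt2A they were Mfsd2a, a lipid transporter of brain endothelium (r = 0.728), the kinase Pim3 (0.716), the glucose transporter Slc2a1 (0.678), the oncostatin M receptor Osmr (0.677) and the repressor Bcl6 (0.674), and Mt1 ranked 14th (0.62). For Mt1 they were Dmrtc1a (0.756), the RNA polymerase I subunit Polr1e (0.701), the endothelin-converting enzyme Ece1 (0.697), Zhx3 (0.696) and the mitochondrial ribosomal protein Mrpl10 (0.695), with Mt2A 24th. For Mt3 they were Map7d1 (0.824), the ribosomal protein Rpl35 (0.816), the translation factor Eif4b (0.777), Zfp358 (0.767) and the splicing factor Prpf31 (0.756). The lists of the 3 genes share no name. All values come from the same 40 arrays, so features common to an array enter each of them.

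Other metal-handling genes were set beside the metallothioneins, from lists chosen with earlier results of these data known. In females at 750 against 250 ppm perinatally, the metal sensor Mtf1 differed by -0.08 log2 (adjusted p = 0.755). Slc30a1, the zinc exporter that MTF-1 also controls, averaged 7.97 ± 0.05 log2 at 750 ppm, against 7.73 ± 0.15 at 250 ppm (SD, n = 4 each), and the groups overlapped. Its difference of 0.24 log2 was not called (adjusted p = 0.402), and relative to controls it was 0.07 (adjusted p = 0.976). None of 25 zinc transport and sensor genes passed in that dose contrast (16 higher, 9 lower, median 0.04 log2), none of 11 measured copper genes (9 higher, median 0.05) and none of 12 iron genes (8 higher, median 0.04), beside a median of -0.01 over all probe sets. In all exposed groups against controls, 1 of the zinc genes passed, the zinc importer Slc39a12, which astrocytes express. It was lower by 0.50 log2 (limma adjusted p = 0.0158), in a contrast where lead and sample-number range cannot be told apart for most exposed groups. Mtf1 (0.03 log2, adjusted p = 0.941) and Slc30a1 (-0.065 log2, adjusted p = 0.856) did not pass there.

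Some glucocorticoid-responsive genes rose in the same females as the metallothioneins. Tsc22d3 (GILZ), a classical glucocorticoid target, read 8.40, 8.56, 8.65 and 8.69 log2 at 750 ppm perinatally, against 7.96, 8.17, 7.84 and 8.28 at 250 ppm and 8.10, 7.97, 7.99 and 7.97 in control females. All arrays at 750 ppm were above those of both other groups. Such a separation upwards was seen for 2.84% of all probe sets against 250 ppm and 2.58% against controls. Tsc22d3 was higher by 0.51 log2 than at 250 ppm (adjusted p = 0.0417) and by 0.57 than in controls (adjusted p = 0.00946). Fkbp5, a chaperone of the receptor, differed by 0.35 (adjusted p = 0.282) and 0.43 log2 (adjusted p = 0.0851) in these 2 contrasts, and the kinase Sgk1 by 0.38 (adjusted p = 0.46) and 0.42 (adjusted p = 0.547), neither of which passed. Of the 15 measured genes of this list, 2 rose in each contrast, Tsc22d3 and the sulfotransferase Sult1a1 (0.86 log2 over 250 ppm, adjusted p = 0.0156), and 13 lay higher, with a median of 0.35 log2 against 250 ppm and 0.37 against controls. Within groups, over all 40 arrays, Mt2A correlated at r = 0.546 with Sgk1, 0.413 with Tsc22d3 and 0.161 with Fkbp5. For Mt1 the values were 0.406, 0.387 and 0.25 in the same order. The metal genes Slc30a1 and Mtf1 correlated at 0.277 and 0.269 with Mt2A, and at 0.298 and 0.376 with Mt1.

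Liver transcripts also differed in that group. Alb read 6.92, 6.66, 7.82 and 7.09 log2 at 750 ppm perinatally, against 5.78, 6.16, 5.95 and 6.02 at 250 ppm and 5.86, 6.24, 6.07 and 6.18 in control females. It rose by 1.15 log2 over 250 ppm (adjusted p = 8.92e-06) and the apolipoprotein Apoc3 by 0.76 (adjusted p = 0.005). Of 12 liver markers these 2 were called in each contrast, and the mean of the 12 on an array was 5.28 to 5.73 log2 at 750 ppm, 5.15 to 5.18 at 250 ppm and 5.12 to 5.26 in controls, all below the array median. Replicate 3 of the 750 ppm group had the highest Alb, Apoc3, Mt2A and Mt1 (10796411) of the 4. Without it the Mt2A 10827989 difference from controls was 0.37 log2 (adjusted p = 0.212). The call was also lost without any other single array of that group, and the smallest difference, 0.34 log2, came without control replicate 3. Within groups, over 40 arrays, Alb correlated with Mt2A at r = 0.384 and with Mt1 at 0.239. The part of liver RNA and of glucocorticoids in the metallothionein differences was not tested.

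**Figure D4:**
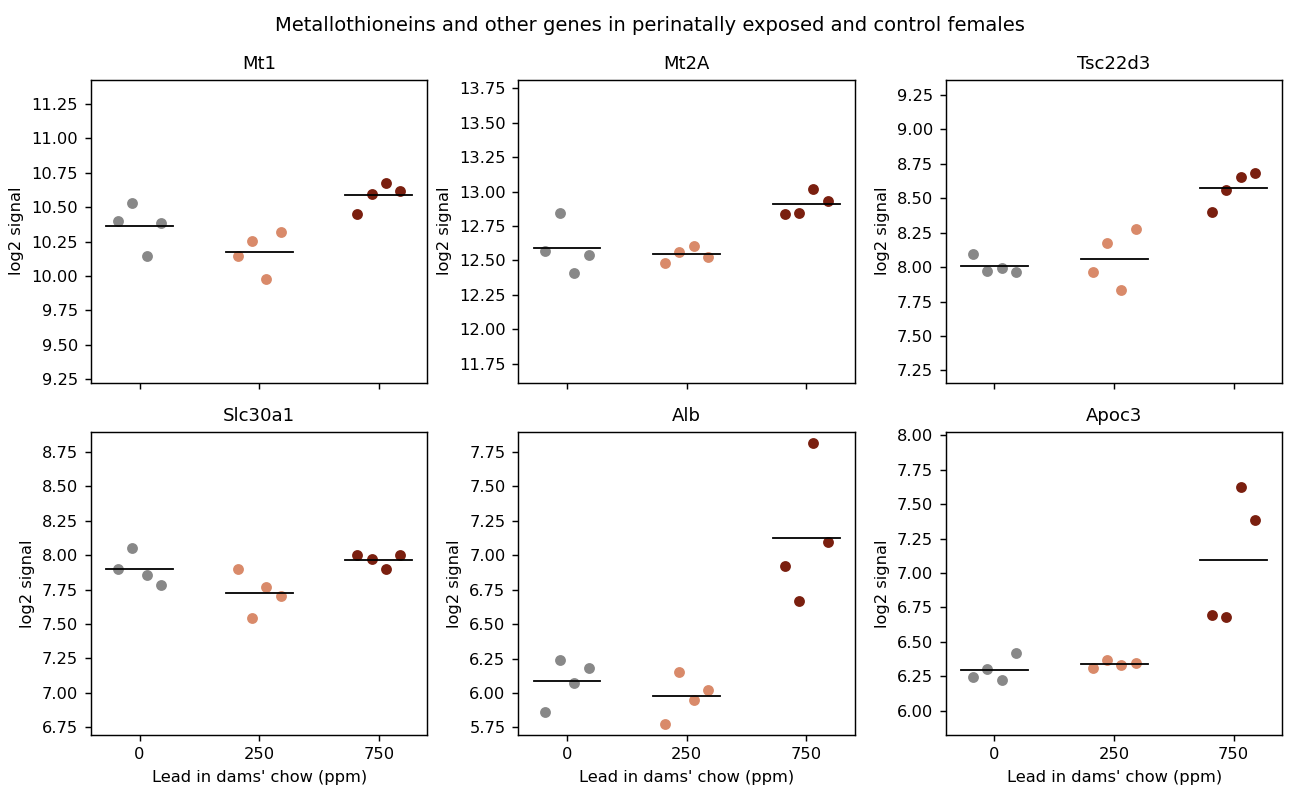
Log2 signal on each array (points, line at the mean, n = 4) of Mt1 (10796411), Mt2A (10809399), Tsc22d3, Slc30a1, Alb and Apoc3 in females with 0, 250 and 750 ppm lead in the dams' chow (grey, light and dark red; 0 is the control group). All panels span the same number of log2 units. Alb and Tsc22d3 at 750 ppm lie above every array of the other groups, and Mt2A above every array at 250 ppm. Of all probe sets, 2.84% were separated upwards from 250 ppm and 2.58% from controls.

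Markers of other cells and responses were read in the same contrast of dose. None of 10 measured astrocyte markers passed (8 higher, median 0.06 log2), and Gfap, an astrocyte filament raised in reactive cells, differed by -0.01 (adjusted p = 0.979). Against controls the astrocyte connexin Gjb6 rose by 0.42 log2 (adjusted p = 0.0475) and was the only one of the 10 to pass. Genes of the NRF2 and glutathione defence did not pass (14 of 16 higher, median 0.05), nor did those of STAT3 and the acute phase (9 of 12 higher, median 0.11). The same held for neuron (5 of 12 higher), oligodendrocyte (1 of 11), microglia (9 of 10) and endothelial markers (8 of 11), with medians of -0.01, -0.11, 0.07 and 0.09 log2. Choroid plexus markers were higher in 11 of 11 with none passing (median 0.64), and on single arrays their mean ran from 6.39 to 9.86 at 750 ppm and from 6.34 to 8.98 at 250 ppm. At 750 ppm Ttr, their most abundant member, read 13.38, 12.67, 9.48 and 9.50, and Mt2A (10809399) read 12.83, 12.85, 13.02 and 12.94 on the same arrays. Against control females the choroid plexus markers were lower in 11 of 11, with none passing and a median of -0.84 log2. Meningeal fibroblast markers (11 of 11 higher, median 0.28) and red blood cell markers (5 of 5 higher, median 0.57) did not pass either, and their part in the metallothionein result was not tested.

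In the contrast of all exposed groups with controls, the oligodendrocyte markers were higher in 11 of 11, of which 5 passed (Cldn11, Mag, Cnp, Mog and Ugt8, at 0.17 to 0.26 log2). Glucocorticoid-responsive genes were higher in 13 of 15 with none passing (median 0.10), and liver markers in 8 of 12 with none passing (median 0.03). Choroid plexus markers were lower in 11 of 11 with none passing (median -0.39), and meningeal fibroblast markers were higher in 8 of 11 with none passing (median 0.19). Their part in the Mt2A difference was not tested. Astrocyte markers were higher in 10 of 10 with none passing and a median of 0.02 log2, beside a median of 0.00 over all probe sets.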

How the data were processed

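Hippocampal RNA (100 ng per sample) was measured on Affymetrix rat arrays, 1 per sample. The deposited values are log2 signals. Per the submitters' processing notes, the tools are RMA, a background correction, array normalization and probe summary, and Partek. No version is given. They were used as deposited, and the number of arrays limited the precision. Samples were grouped by their labels. A limma model (limma 3.58.1, R 4.3.3) with 1 mean per group was fitted to all 40 arrays and 29214 probe sets, with empirical Bayes moderation and a variance trend. It gave 25 contrasts, each with two-sided p-values adjusted by Benjamini-Hochberg and called at an adjusted p under 0.05. The test was checked on simulated data. The members, the 15 gene lists (197 genes) and the contrasts were chosen with earlier results of these data known. A gene was represented in lists and likeness rankings by its probe set of highest mean. The text names all members, listed genes called where a member was called, Mtf1, Slc30a1, Tsc22d3, Fkbp5, Sgk1, Alb and Apoc3, and the 5 genes most like each member. Eif2s3, Gfap, Ttr and Mt4 were named outside this rule after their values were seen. Alternatives were a further quantile normalization, leaving out the dimmest 40% of probe sets, fits of the compared groups only, no variance trend, array weights, fits without arrays that stood apart, the lowest sample-number range alone, and each array left out. Figures used matplotlib 3.10.9.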

Additional observations from a re-analysis of the deposited data

Results flagged for a closer look

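Mt1 and Mt2A differed between the perinatal groups of females at 750 and 250 ppm by the limma test of that difference (750 minus 250 ppm), for which dose and sample-number range cannot be told apart and which 5 to 7 of 8 fits with 1 array left out did not call: 0.4121 and 0.4796 log2 for the Mt1 probe sets 10796411 and 10809392, and 0.363 and 0.4474 log2 for the Mt2A probe sets 10809399 and 10827989.

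In 3 of 50 sets of 4 arrays a single array lay far from the other 3 by Dixon's criterion, which chance alone gives for about 5% of such sets. Females at 250 ppm postnatally had 1 high array in both Mt1 probe sets (replicate 4, at 10.57 for 10796411 and 10.29 for 10809392). Males at 750 ppm postnatally had 1 low array in Mt1 10796411 (replicate 3, at 10.27).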

How the results depend on the processing

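No member changed direction in a called comparison under any setting tried, and calls were lost in several. For perinatal females (750 minus 250 ppm), fits of the compared groups only lost Mt1 10796411 (0.41 log2, adjusted p = 0.119) and Mt1 10809392 (0.48 log2, adjusted p = 0.127), and fits without the variance trend lost Mt1 10796411 (0.41, adjusted p = 0.0724) and Mt2A 10809399 (0.36, adjusted p = 0.0581). With single arrays left out, these differences ranged from 0.35 to 0.46 (Mt1 10796411), 0.40 to 0.54 (Mt1 10809392), 0.33 to 0.39 (Mt2A 10809399) and 0.41 to 0.48 (Mt2A 10827989). For females at 750 ppm perinatally against controls, Mt2A 10827989 was lost with a further quantile normalization (0.42, adjusted p = 0.0762), in the compared groups only (0.40, adjusted p = 0.338), without the trend (0.40, adjusted p = 0.0762), without the 3 mismatched controls (0.28), without the 3 compressed arrays (0.40, adjusted p = 0.0572) and in the 12 arrays of the lowest number range (0.40, adjusted p = 0.156), and ranged from 0.34 to 0.50 with single arrays left out. Mt2A 10809399 passed there with array weights (0.34, adjusted p = 0.00776) and against all 8 controls (0.33), a setting chosen after seeing the data, and ranged from 0.25 to 0.40. For all exposed groups, Mt2A 10809399 was lost with quantile normalization (0.18, adjusted p = 0.0637), without the trend (0.17, adjusted p = 0.077) and without the mismatched controls (0.14), and ranged from 0.14 to 0.22; it stayed called for 12 of 40 single arrays left out. Mt2A 10827989 was lost without the trend (0.23, adjusted p = 0.052) and without the mismatched controls (0.18), and ranged from 0.19 to 0.27. Causes of these changes were not tested, and some fits also used fewer arrays. No paired analysis was possible because the labels give no replicate numbers shared between groups.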
